A study of Mus musculus with 8 samples.

Results

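Paneth cell secreted defence genes were followed in mouse small intestinal organoids cultured with or without RANKL, the ligand of the TNF family receptor RANK. The group consists of 8 named genes: Lyz1, Lyz2, Defa17, Defa24, Itln1, Ang4, Mmp7 and Pla2g2a. They were taken by symbol from the 54532 genes of the count table, with earlier results of these data known. There were 4 control libraries of untreated organoids and 4 libraries of RANKL-treated organoids, all made from total RNA by 3′ mRNA sequencing. The methods describe organoids grown from freshly isolated crypts in medium with EGF, NOGGIN and R-spondin, and mouse lines kept on C57BL/6J. The methods give 1 broad range of ages for the mice of the whole study, but the age of those behind these libraries and the dose and duration of RANKL in them are not given in the sources used here. Nor is it stated whether the libraries came from separate mice or cultures, so p-values measure the spread between these libraries only. Organoids contain epithelium without the immune and stromal cells of the gut wall.

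Paneth cells sit at the base of small intestinal crypts and release granules of antimicrobial proteins into the lumen. Lysozyme cleaves bacterial cell wall peptidoglycan, alpha-defensins are small cationic peptides that damage bacterial membranes, and in the mouse the protease MMP7 cuts their precursors into the active form. The granules also carry the ribonuclease angiogenin 4, intelectin 1, which binds microbial sugars, and, where the gene is intact, the phospholipase encoded by Pla2g2a. The same cells supply neighbouring stem cells with niche signals such as WNT3, EGF and Notch ligands.

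Total counts ran from 583663 in control replicate 4 to 7807298 in control replicate 1. RANKL replicate 1, with 613135 counts, was nearly as shallow as control replicate 4. Values are CPM, read counts per 1000000 counts of the library, scaled by TMM factors, and library values are listed in the order of replicates 1 to 4. Since 1 end of each transcript is read, they do not scale with transcript length. Among 9971 genes tested with edgeR, 2587 (25.9%) passed an adjusted p of 0.05. That share is the background for the number of genes that passed in each list below. Of the 8 genes, 6 had enough counts to be tested, and Lyz2 and Pla2g2a did not.

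The alpha-defensin genes lie in an array of near copies on chromosome 8, which bears on how their reads can be assigned. Defa17 spans chr8:21655780-21656735 and Defa24 spans chr8:21734494-21735471, both on the + strand of GRCm38. In the GENCODE M21 transcripts, Defa17 and Defa3, another gene of the array, had the same coding sequence, with 0 mismatches over 282 bases. Defa24 differed from Defa17 at 12 of these bases. The coding part of exon 2, which encodes most of the mature peptide, is printed here to show how alike these copies are, with capitals marking bases of Defa24 that differ from Defa17. Defa3 (chr8:21288174-21288283) has the same letters as Defa17 over this stretch.
Defa17 (chr8:21656532-21656641, + strand): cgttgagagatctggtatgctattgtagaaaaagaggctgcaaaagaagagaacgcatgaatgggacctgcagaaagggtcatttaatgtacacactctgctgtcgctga
Defa24 (chr8:21735268-21735377, + strand): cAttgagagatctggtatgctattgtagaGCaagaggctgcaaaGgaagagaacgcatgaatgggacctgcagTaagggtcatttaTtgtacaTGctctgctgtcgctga
Of the 110 bases printed, 8 differed.

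Defa17 fell with RANKL and was the only one of the 8 genes that passed the test. Its level was 1278, 792, 1392 and 1090 CPM over the control libraries and 622, 791, 857 and 529 CPM over the RANKL libraries. The groups overlapped, because control replicate 2 lay below RANKL replicate 3, while all 4 RANKL libraries lay below the control mean. The mean level was 1138 ± 262 CPM without RANKL and 699.7 ± 151 CPM with it (SD, n = 4), and the log2 fold change was -0.70 (SE 0.14, 95% interval -0.98 to -0.42, edgeR adjusted p = 0.00026), or 0.616-fold. An exact two-sided permutation test on the 8 CPM values gave p = 0.0571, where 0.0286 is the smallest p that 4 against 4 libraries allow. The call held in all 16 other fits, among them those without any 1 library.

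Defa24, the alpha-defensin gene with the most counts, did not pass the test. It stood at 2230, 1861, 2550 and 2036 CPM over the control libraries and at 1758, 2032, 2097 and 1700 CPM over the RANKL libraries. The 4 RANKL libraries lay below the control mean of 2169 CPM, and 2 of them, replicates 1 and 4, also lay below the lowest control library. The log2 fold change was -0.19 (SE 0.10, 95% interval -0.40 to 0.02, edgeR adjusted p = 0.18).

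The counts of Defa17 were also set against those of Defa24 within each library. The log2 ratio of their counts (each plus 1) was -0.80, -1.23, -0.87 and -0.90 over the control libraries. Over the RANKL libraries it was -1.50, -1.36, -1.29 and -1.68. The groups did not overlap, although control replicate 2 and RANKL replicate 3 were close, and the mean ratio differed by -0.51 on the log2 scale (exact two-sided permutation p = 0.0286, 0.0571 after Benjamini-Hochberg adjustment over 2 ratios). All 4 RANKL libraries had the lower ratio, but the difference did not pass after adjustment.

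**Figure D1:**
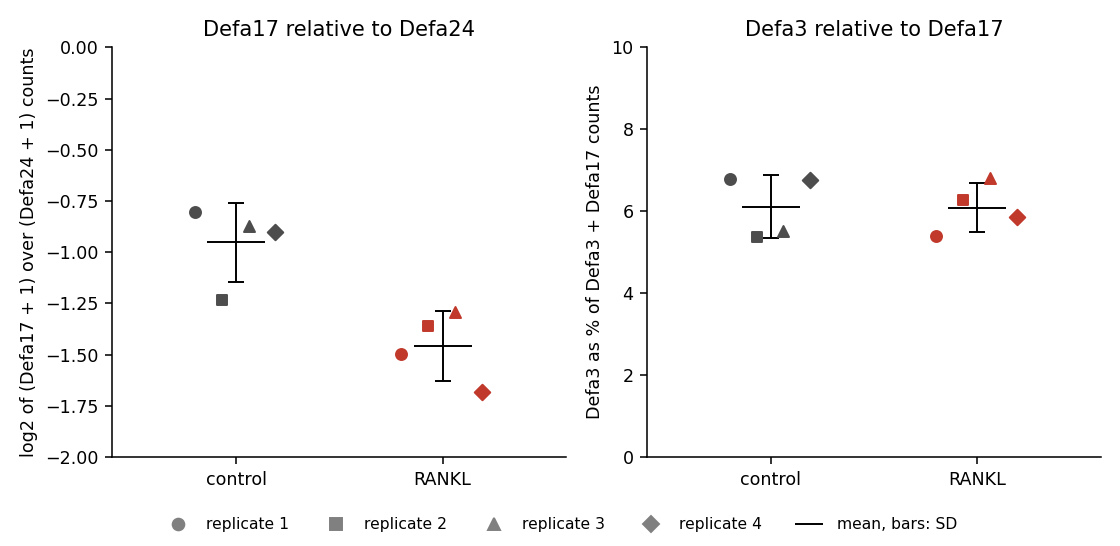
Left, log2 ratio of Defa17 to Defa24 counts, each plus 1, in every library. Right, Defa3 counts as a percentage of Defa3 and Defa17 counts together. Points are single libraries by replicate number and bars are the mean and SD of 4 libraries. The left-hand ratio lies at -1.23 or above in control and at -1.29 or below in RANKL-treated organoids, and the right-hand share lies between 5.38% and 6.81% in all 8 libraries.

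The share of sequence that other genes hold was measured over the 251 windows of 50 bases, the read length, in the last 300 bases of each transcript. Of the Defa17 windows, 223 (88.8%) also occurred in another gene, and each of these was in Defa3. The 28 windows of its own ended within 27 bases of the 3′ end of the transcript. For Defa24 the share was 27.5%, mostly with Defa30, and no Defa24 window occurred in Defa17. Lyz1 and Lyz2 shared 21.9% of their windows with each other, Ang4 shared 12.4% with Ang5 and Ang2, and Itln1, Mmp7 and Pla2g2a shared 0%. How reads that match several genes were treated is not given in the sources used here.

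The alpha-defensin genes examined in this way were those of the lists, whatever their counts, and Defa28 and Defa35, added because they had counts. Unlisted ones with 0 counts were left out, so the choice of genes partly sets the split given here. Among the 19 genes, 7 shared at least 99% of their windows. Of these, 6 had 0 counts in all 8 libraries (Defa5, Defa20, Defa23, Defa31, Defa32 and Defa37), and Defa34 had 79 counts in all. Of the 12 genes under 99%, 8 had more than 100 counts. Low counts also occurred under 99%, with 2 counts for Defa25 (74.8% shared) and 1 for Defa27 (61.4%). Whether a listed 0 came from reads that could not be assigned or from a lack of transcript was not tested. Levels of different defensin genes are not compared here as levels of expression.

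**Figure D2:**
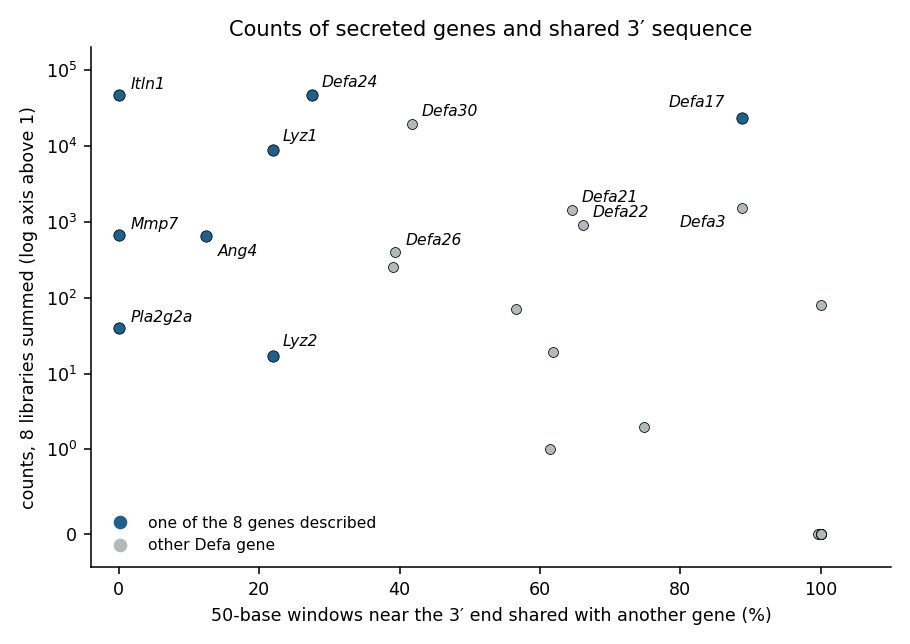
Counts summed over 8 libraries (vertical log axis, linear below 1) against the percentage of 50-base windows in the last 300 bases of the transcript that another gene also holds. The 8 genes described are in blue and other alpha-defensin genes in grey. Defa17 is at 88.8% with 23261 counts, and 6 of the 7 defensin genes at 99% or more are at 0 counts.

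Defa3 moved with Defa17. Of the counts assigned to either gene, Defa3 held 6.11% ± 0.764 in control and 6.09% ± 0.598 in RANKL-treated organoids (SD, n = 4). This share was computed after their values had been seen. The log2 fold change of Defa3 was -0.65 (SE 0.19, edgeR adjusted p = 0.011), a call that was lost with DESeq2 (adjusted p = 0.12), without control replicate 1 (adjusted p = 0.063) and without RANKL replicate 4 (adjusted p = 0.09). The copies share their coding sequence and most of their 3′ windows. The values of Defa17 and Defa3 may therefore depend on each other, which was not tested.

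Other alpha-defensin genes had smaller or opposite differences. Defa30, the third gene with a high count, had a log2 fold change of -0.13 (SE 0.11, edgeR adjusted p = 0.44). Defa21 rose, from 67.2, 49.6, 41.3 and 39.5 CPM over the control libraries to 74.3, 78.5, 84.0 and 113.1 CPM over the RANKL libraries. Its groups did not overlap, as was the case for 24.6% of all genes tested, and the log2 fold change was 0.77 (SE 0.15, edgeR adjusted p = 0.00028). Defa22, which shares 66.1% of its windows, chiefly with Defa21, had a log2 fold change of 0.54 (SE 0.20, edgeR adjusted p = 0.041). That call was lost with DESeq2 (adjusted p = 0.1) and without control replicate 2, control replicate 3 or RANKL replicate 4 (adjusted p from 0.087 to 0.38).

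With all genes named Defa summed into 1 feature, the difference did not pass the test (log2 fold change -0.27, SE 0.11, edgeR adjusted p = 0.067). Of the library, these genes took 0.435% ± 0.0635 of counts in control and 0.366% ± 0.0429 in RANKL-treated organoids (SD, n = 4). Defa17, Defa24 and Defa30 made up between 91.8% and 96.5% of the defensin counts in each library.

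Lyz1 is the Paneth cell lysozyme gene, and Lyz2, its neighbour on chromosome 10, is best known from macrophages and other myeloid cells. Lyz1 spans chr10:117287797-117292868 and Lyz2 spans chr10:117277331-117282321, both on the - strand. Their start regions are shown because these adjacent duplicates have nearly the same first bases and counts that differ by orders of magnitude. The windows run from 250 bases before the transcript start to 50 bases after it (RefSeq, GRCm38.p6), and capitals mark bases that differ or have no partner in the other gene.
Lyz1 (chr10:117292819-117293118, - strand): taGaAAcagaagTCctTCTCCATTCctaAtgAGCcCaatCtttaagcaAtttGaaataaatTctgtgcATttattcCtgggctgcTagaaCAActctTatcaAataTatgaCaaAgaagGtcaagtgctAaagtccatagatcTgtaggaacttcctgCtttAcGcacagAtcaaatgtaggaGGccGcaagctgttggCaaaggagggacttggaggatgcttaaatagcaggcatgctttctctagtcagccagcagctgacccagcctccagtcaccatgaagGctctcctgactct
Lyz2 (chr10:117282223-117282522, - strand): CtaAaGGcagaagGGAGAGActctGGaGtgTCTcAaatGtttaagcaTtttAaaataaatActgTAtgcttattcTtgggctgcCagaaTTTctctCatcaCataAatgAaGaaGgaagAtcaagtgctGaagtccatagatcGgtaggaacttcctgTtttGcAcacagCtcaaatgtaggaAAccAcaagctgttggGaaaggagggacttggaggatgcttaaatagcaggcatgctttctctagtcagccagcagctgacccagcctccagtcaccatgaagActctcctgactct
Of 311 aligned positions 253 (81.4%) were identical, and of the last 100, around the start, 99 were.

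Lyz1 was abundant in every library and did not pass the test. It measured 438, 370, 320 and 385 CPM over the control libraries and 412, 394, 471 and 414 CPM over the RANKL libraries. The RANKL libraries all lay above the control mean, and the groups overlapped because control replicate 1 exceeded 3 of them. The means were 378 ± 48.9 and 423 ± 33.3 CPM (SD, n = 4) and the log2 fold change was 0.16 (SE 0.10, 95% interval -0.05 to 0.37, edgeR adjusted p = 0.27). Without control replicate 3, the lowest library, the log2 fold change was 0.08, and without control replicate 1 it was 0.25.

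Lyz2 was close to the limit of detection. Its raw counts were 5, 2, 1 and 0 over the control libraries and 3, 0, 2 and 4 over the RANKL libraries. A count of 0 allows up to 5.16 CPM in control replicate 4 and up to 2.06 CPM in RANKL replicate 2. Of reads assigned to either lysozyme gene, 0.127% (95% exact Clopper-Pearson interval 0.0547 to 0.249%) were Lyz2 in the control libraries together and 0.361% (0.165 to 0.684%) in the RANKL libraries together, intervals that cover counting error only. The log2 ratio of Lyz1 to Lyz2 counts, each plus 1, did not pass the test (8.78 ± 0.673 in control, 7.66 ± 1.36 in RANKL, SD, n = 4, exact two-sided permutation p = 0.2, adjusted p = 0.2). In a fit without the filter on low counts the edgeR adjusted p for Lyz2 was 0.29. Of 14 markers of macrophages and other leukocytes, none had enough counts to be tested. Together they summed to 8.6 to 13.2 CPM in control and 10.3 to 19.4 CPM in RANKL libraries, and C1qb, C1qc and Tyrobp were at 0 in every library. Csf1r had the most counts of the list, and its mean was 5.29 CPM without RANKL and 4.95 CPM with it. Cd14 was at 0.268 to 1.72 CPM in control and at 3.85 to 6.46 CPM in RANKL libraries, on 15 and 26 counts in all. The groups did not overlap (exact two-sided permutation p = 0.0286, the smallest possible and not adjusted over the list). This gap rests on few reads, since 1 count in control replicate 4 is 1.72 CPM. Cd68 went the other way, with means of 1.85 CPM without RANKL and 0.584 CPM with it, on 43 and 4 counts. These genes were named after their values had been seen, and their part in the Lyz2 counts was not tested. The other 6 lysozyme-like genes of the list were at or near 0.

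**Figure D3:**
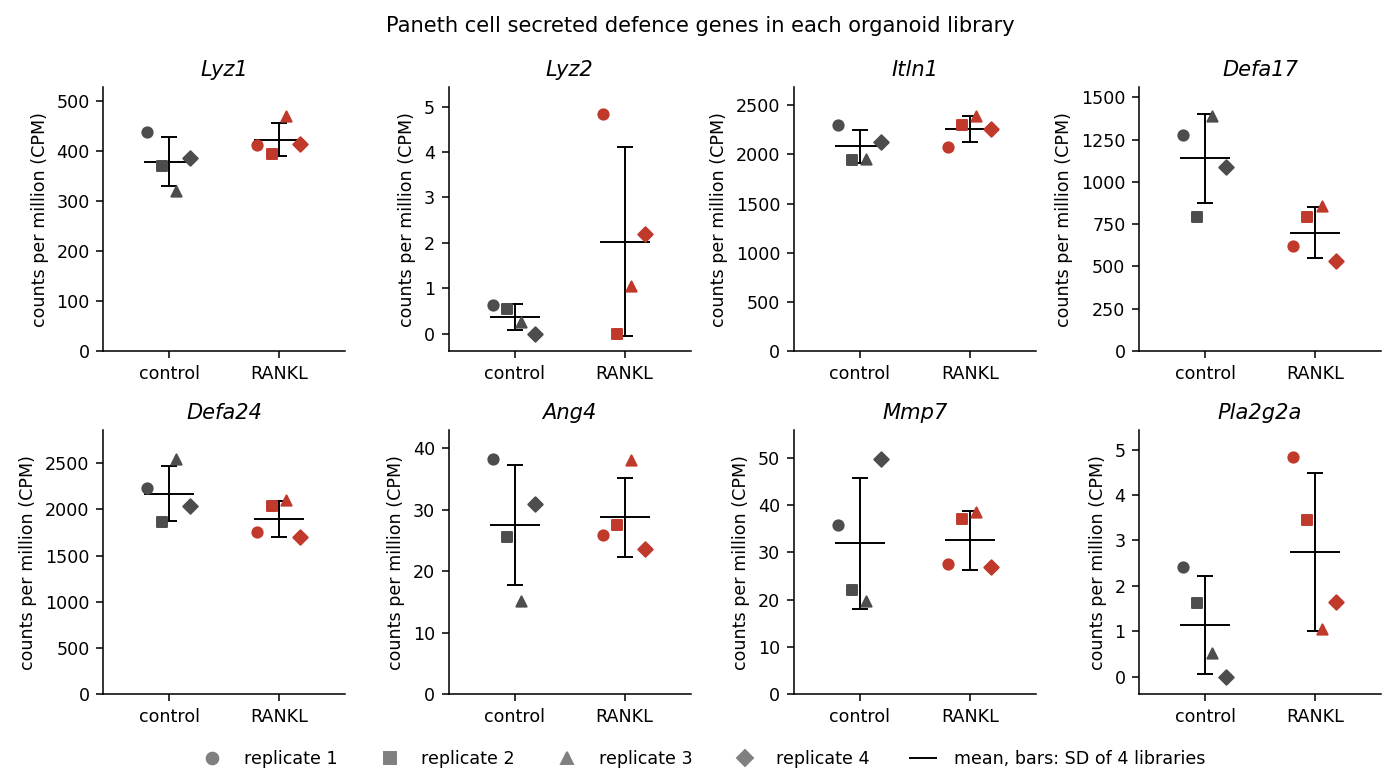
Level of each of the 8 genes in CPM (linear vertical axes, a separate scale for each gene) in the 4 control and 4 RANKL libraries. Points are libraries, marked by replicate number, and bars are the mean and SD. For every gene the 2 groups overlap, and Defa17 is the gene with the lower RANKL mean that passed the test.

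Itln1, the intelectin gene on chr1:171518122-171535294, ranked 26 by mean CPM among 23836 genes with a count and varied little between libraries. It stood at 2301, 1948, 1952 and 2129 CPM over the control libraries and at 2073, 2304, 2396 and 2263 CPM over the RANKL libraries. The groups overlapped widely, with a log2 fold change of 0.12 (SE 0.09, 95% interval -0.07 to 0.31, edgeR adjusted p = 0.38). The coefficient of variation was 8.08% in control and 6.02% in RANKL-treated organoids, the lowest of the 8 genes. Intelectin is also made by goblet cells, and none of 7 goblet cell markers passed the test. Their sum was 2789 to 3444 CPM in control and 3141 to 3410 CPM in RANKL libraries.

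Ang4, on chr14:51763878-51773590, encodes a microbicidal ribonuclease. It measured 38.3, 25.5, 15.2 and 30.9 CPM over the control libraries and 25.8, 27.5, 38.1 and 23.6 CPM over the RANKL libraries. The range of the RANKL libraries lay within that of the control libraries. The log2 fold change was 0.09 (SE 0.22, 95% interval -0.37 to 0.55, edgeR adjusted p = 0.81). Its direction turned without control replicate 3 (log2 fold change -0.15) and without RANKL replicate 3 (-0.11). Of the 10 genes of the RNase A family 4 were tested and 1 passed, where 25.9% of all genes tested did. It was Rnase1, a secreted pancreatic-type ribonuclease, which rose from 30.3 ± 3.32 to 78.4 ± 4.14 CPM (SD, n = 4, log2 fold change 1.40, SE 0.13, edgeR adjusted p = 1.6e-09).

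Mmp7, on chr9:7692090-7699585, encodes the protease that activates alpha-defensin precursors. Its levels were 35.9, 22.0, 19.8 and 49.9 CPM over the control libraries and 27.4, 37.2, 38.6 and 26.9 CPM over the RANKL libraries. The control libraries spread more widely than the RANKL libraries and enclosed them. The log2 fold change, in which deeper libraries weigh more, was 0.21 (SE 0.21, 95% interval -0.23 to 0.64, edgeR adjusted p = 0.52), although the mean levels were 31.9 and 32.5 CPM. Without control replicate 3 it was 0.05 and without control replicate 1 it was 0.43. Of 23 metalloproteinases and inhibitors 4 were tested and 1 passed, where 25.9% of all genes tested did. It was the membrane-bound Mmp15, which rose from 38.8 ± 4.1 to 94.3 ± 8.31 CPM (SD, n = 4, log2 fold change 1.25, SE 0.13, edgeR adjusted p = 3.4e-09).

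Pla2g2a, on chr4:138831857-138835186, is annotated as a polymorphic pseudogene, and C57BL/6 mice carry a disrupted copy. Its counts were 19, 6, 2 and 0 over the control libraries and 3, 5, 2 and 3 over the RANKL libraries. All libraries were under 5 CPM, and a count of 0 allows up to 5.16 CPM in control replicate 4. In the fit without a filter its edgeR adjusted p was 0.68. Of 11 secreted phospholipase A2 genes 2 were tested and 1 passed, where 25.9% of all genes tested did. It was Pla2g12a, which fell from 50.6 ± 5.72 to 30.9 ± 7.76 CPM (SD, n = 4, log2 fold change -0.74, SE 0.17, edgeR adjusted p = 0.0011).

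Of the 6 genes tested, 1 passed, against 25.9% of all genes, and their median log2 fold change was 0.11, against 0.00 for all genes tested. The 8 genes together held 0.578% ± 0.0565 of all counts in control and 0.539% ± 0.0444 in RANKL-treated organoids (SD, n = 4). The log2 fold change was positive for 4 of the 6 genes tested and negative for 2. In these bulk libraries a difference in the number of Paneth cells and one in RNA per Paneth cell cannot be told apart.

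**Figure D4:**
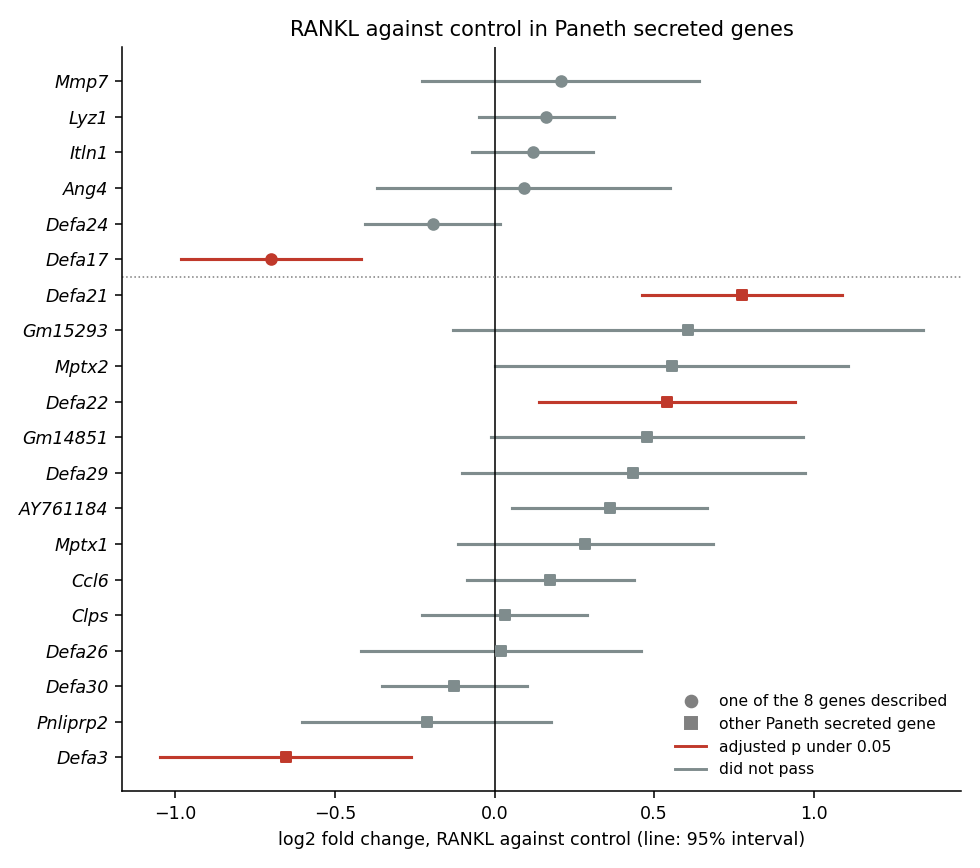
Log2 fold change of RANKL against control (horizontal axis) with its 95% interval from edgeR, for the 6 genes tested (circles, above the dotted line) and 14 other Paneth secreted genes (squares). Red marks an adjusted p under 0.05. Defa17 at -0.70 and Defa3 at -0.65 lie to the left, and Defa21 at 0.77 and Defa22 at 0.54 to the right.

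Of 26 other products secreted by Paneth cells, 14 were tested, 2 rose (Defa21 and Defa22) and 1 fell (Defa3), with a median log2 fold change of 0.32. The mucosal pentraxin genes Mptx1 and Mptx2 had log2 fold changes of 0.28 and 0.56 (edgeR adjusted p = 0.31 and 0.14). Colipase (Clps) and the chemokine Ccl6 had log2 fold changes of 0.03 and 0.18 (edgeR adjusted p = 0.89 and 0.34).

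Of 18 genes of Paneth cell fate and granule formation 11 were tested, 2 rose, 2 fell and the median log2 fold change was -0.08. Sox9, a transcription factor needed for Paneth cells and also present in crypt progenitors, rose from 585 ± 24.6 to 902 ± 42.8 CPM (SD, n = 4, log2 fold change 0.63, edgeR adjusted p = 3.1e-06). Cd24a, a surface protein of Paneth and other crypt cells, rose from 54.7 ± 9.12 to 149.9 ± 8.75 CPM (SD, n = 4, log2 fold change 1.49, edgeR adjusted p = 5.7e-11). Both had groups that did not overlap, as was the case for 24.6% of all genes tested. Fzd5, the WNT receptor that Paneth cell maturation requires, fell (log2 fold change -0.48, edgeR adjusted p = 0.0025). Spdef, a factor of secretory cell maturation, also fell (log2 fold change -0.57, edgeR adjusted p = 0.031), though not with DESeq2 (adjusted p = 0.096) or without control replicate 3, RANKL replicate 2 or RANKL replicate 4 (adjusted p from 0.067 to 0.14). For both Fzd5 and Spdef the groups overlapped. Atoh1, the master factor of secretory cells, was at 6.08 and 6.03 CPM (edgeR adjusted p = 0.86), and Xbp1, which secretory cells need for protein folding, had a log2 fold change of -0.16 (edgeR adjusted p = 0.39).

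Of 8 niche ligands 3 were tested. The Notch ligand Dll1 rose from 8.25 ± 0.569 to 21.2 ± 2.13 CPM (SD, n = 4, log2 fold change 1.37, edgeR adjusted p = 1.5e-05). Wnt3 had a log2 fold change of 0.22 (edgeR adjusted p = 0.44) and Tgfa of -0.11 (edgeR adjusted p = 0.76). Egf, at 32 counts in control and 13 in RANKL libraries, was not tested.

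Markers of other cell types differed between the same libraries. Of 7 M cell markers 6 rose and Gp2 was at 0, and their sum went from 22.9 to 31.0 CPM in control to 1802 to 2054 CPM in RANKL libraries. Most of the RANKL sum was Spib, with a mean of 4.35 CPM in control and 1607 CPM in RANKL libraries. Of 6 stem cell markers 3 fell (Lgr5, Smoc2 and Axin2) and Ascl2 rose, with sums of 1878 to 2305 and 1638 to 1816 CPM. Most of these stem cell sums came from Olfm4 and Slc12a2, which did not pass the test. The part of all these markers in the values of the secreted genes was not tested.

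Across the 8 libraries the secreted genes did not all vary together. Defa17 and Defa24 varied together (Pearson r = 0.93 of log2 CPM), as did Lyz1 with Ang4 (r = 0.87) and with Itln1 (r = 0.83). Other pairs had negative values, with r = -0.36 for Defa17 with Lyz1 and r = -0.38 for Defa24 with Lyz1. Control replicate 3 had the highest Defa17 and Defa24 and the lowest Lyz1, Ang4 and Mmp7 of the control libraries. These values describe 8 libraries that share treatment and depth, and no test was made. Among 10086 genes with a mean of at least 5 CPM, those most like a secreted gene by the same measure were Swi5, Prelid3b and Clasrp for Defa17 (r of 0.97 each), Ambra1, Gm6142 and Zfp865 for Defa24 (0.95 to 0.96), and Mrpl39, Ormdl2 and Stxbp6 for Lyz1 (0.94 to 0.95). For Itln1 they were Coro1b, Arl5a and Pyroxd1 (0.95 to 0.98), and for Ang4 Polg2, Cdc123 and Kctd14 (0.92 to 0.96). Each set is the 3 highest values among 10086 genes over only 8 libraries. What such a selection gives for unrelated genes was not measured, so no link between the genes is drawn from it.

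RefSeq start regions were found for 5 of the 8 genes, and not for Defa17, Defa24 and Pla2g2a. They were searched on both strands for CTTTGAA and CTTTGAT, letters bound by TCF factors of the WNT pathway, and for ACAAAG, letters bound by SOX factors, all of which hold CAAAG on one strand or the other. Lyz1 had ACAAAG at -140 from the start, at a place where Lyz2 differs, and Lyz2 had no match. Ang4 had ACAAAG at -113 on the other strand. Mmp7 has 2 annotated starts. The other strand held CTTTGAT at 4 from the first start, which is -247 from the second, and ACAAAG at -186 from the second start. Itln1 had no match. Of 32851 start regions 5.14% held CTTTGAA, 3.73% CTTTGAT and 18.7% ACAAAG, so a match to ACAAAG is common.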

How the data were processed

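Gene expression was measured in 4 control and 4 RANKL-treated organoid libraries by QuantSeq 3′ mRNA sequencing with reads of 50 bases. The authors trimmed the reads, removed abundant sequences, used STAR for alignment to GRCm38 (mm10) and, with strand-specific featureCounts, assigned reads to the genes of Ensembl release 94. The deposited values are raw counts with no normalization. All 8 symbols matched GENCODE M21, and no column of another sample was present. The 8 genes and all lists were chosen with earlier results of these data known.

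Differences were tested by the quasi-likelihood method of edgeR 4.0.16 (R 4.3.3) after TMM scaling and removal of genes with low counts, with Benjamini-Hochberg adjustment over 9971 genes. The study's methods used DESeq2, run here (1.42.0) as an alternative, as was limma-voom 3.58.1. The script was tested on simulated counts with the same spread for every gene. Of 200 changed genes 158 were recovered, with 10 false calls. Of 50 genes changed 1.5-fold only 22 were recovered, so changes of that size can be missed. Ratios within a library and single CPM values were compared by exact permutation over 70 assignments. Depth was 583663 to 7807298 counts, so that 3 counts, the limit a count of 0 allows, are 0.382 to 5.16 CPM. Genes named were all 8, up to 5 of each other list that passed with the largest change, copies of the 8 genes above 5 CPM, and the 3 genes most like each, which for Mmp7 are not reported here. Other genes given with values were chosen after these had been seen.

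The other fits used DESeq2 size factors, library totals alone, DESeq2, limma-voom, no filter, a minimum of 10 counts per library, a replicate block, scaling without Paneth genes, and each library left out. An adjusted p of 0.01, summed copies, and pseudocounts of 0.5 and 5 in the ratios were also tried.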

Additional observations from a re-analysis of the deposited data

Results flagged for a closer look

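Of 48 groups of 4 libraries checked for a library far from the others, chance would flag about 1 in 20. The control level of Mmp15, named beside Mmp7, had 1 such library: control replicate 4, the shallowest, stood at 32.7 CPM against 40.4, 41.3 and 40.8 CPM in control replicates 1 to 3. No group of the 8 secreted genes, of their ratios or of their share of counts was flagged.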

How the results depend on the processing

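Defa17 kept its direction and its call in all 16 other fits, with a log2 fold change from -0.84 to -0.58 and an adjusted p of at most 0.013, reached with DESeq2. Lyz1, Itln1, Mmp7 and Defa24 kept their direction and stayed short of the threshold in all 16, with log2 fold changes of 0.08 to 0.25, 0.09 to 0.17, 0.05 to 0.43 and -0.26 to -0.11 when each library was left out. Ang4 ran from -0.15 to 0.44 and turned without control replicate 3 (-0.15) and without RANKL replicate 3 (-0.11). The cause was not tested. The Defa17 to Defa24 difference ran from -0.60 to -0.43 and the Lyz1 to Lyz2 difference from -1.62 to -0.57. The 8 genes' share of counts in RANKL minus control ran from -0.0635 to -0.0191 percentage points and that of all Defa genes from -0.0955 to -0.0484 as libraries were left out. The count of genes that passed was 1853 to 2601 with a library left out, 1636 at an adjusted p of 0.01 and 2053 with DESeq2. Replicate numbers gave no clear pairing of the libraries. Deviations of same-numbered libraries correlated at -0.01, -0.03, 0.10 and 0.04, and not every library was closest to its own number. With 4 libraries per group and 2 shallow ones, these values cannot show whether same-numbered libraries shared a culture or mouse. With the replicate number as a block 2610 genes passed, Defa17 at a log2 fold change of -0.69, Defa24 at -0.19, Lyz1 at 0.18, Itln1 at 0.12, Mmp7 at 0.28 and Ang4 at 0.27, and among the genes named here the call of Spdef alone was lost (adjusted p = 0.065). Depth limits Lyz2 and Pla2g2a, and in the 2 shallowest libraries Ang4 and Mmp7, at 16 to 29 counts.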
